A study of Rattus norvegicus with 24 samples.

Results

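The opioid peptide precursors and the opioid receptors of the rat were followed through the nucleus accumbens (NAc), the ventral striatal region in which opioids and other drugs of abuse act on motivation. The set was defined by gene symbol, as the 4 precursor genes Penk, Pdyn, Pnoc and Pomc and the 4 receptor genes Oprm1, Oprd1, Oprk1 and Oprl1. It was chosen with earlier results of these data known. All 8 were present among the 32545 genes measured, and each was read in all 24 libraries.

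RNA-seq was done on NAc tissue, core and shell together, of male Sprague Dawley rats that were 8 weeks old on arrival. In the injection experiment, rats received 5 intraperitoneal injections of lipopolysaccharide (LPS, a bacterial cell wall component that sets off inflammation) at 250 µg/kg, or saline, over 2 weeks, and then 5 daily injections of heroin rising from 1 to 5 mg/kg, or saline. This gave the groups Saline-Saline, Saline-Heroin, LPS-Saline and LPS-Heroin, named by the first and the second agent. In the self-administration experiment, rats with a jugular catheter took heroin at 0.075 mg/kg per infusion (Heroin-SA) or saline (Saline-SA) in 10 daily sessions of 6 hours. Each group held 4 libraries, which the labels call biological replicates, whereas the study's methods state 6 sequenced samples per group. The labels place 1 week between LPS and heroin and the methods 4 days. Injected rats were killed 1 hour after the last injection by the labels, whereas the methods put a locomotor recording after that injection and the killing within 1 hour of its end. Self-administering rats were killed right after the last session. Self-administering rats had surgery, lived alone and were kept on a reversed light cycle, so the experiments differ in many things that cannot be told apart. Every injected rat, the Saline-Saline controls included, thus received both series of injections. Saline-Saline was the common control of the injection experiment.

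Opioid peptides are cut from larger precursor proteins, stored in vesicles and released by neurons. Penk encodes proenkephalin, the source of enkephalins, which act mainly on the δ and µ receptors, and in the striatum it marks the medium spiny neurons that carry the D2 dopamine receptor. Pdyn encodes prodynorphin, the source of dynorphins, which act on the κ receptor, and it marks the medium spiny neurons that carry the D1 dopamine receptor. Pnoc encodes the precursor of nociceptin, the ligand of the nociceptin receptor encoded by Oprl1. Pomc encodes proopiomelanocortin, from which β-endorphin and several melanocortins and corticotropin are made, and its known sites of synthesis are the pituitary and the arcuate nucleus of the hypothalamus. Oprm1, Oprd1 and Oprk1 encode the µ, δ and κ receptors, and the µ receptor is the main target of heroin and its metabolites. All 4 receptors couple to inhibitory G proteins, which lower cyclic AMP and open potassium channels.

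The values are FPKM, sequenced fragments scaled by gene length and by library size, so that levels can be compared between genes and libraries. Depth was 12312878 to 18850240 reads on genes. Mitochondrial genes took 6.82% to 9.10% of these reads in the injection libraries and 10.0% to 15.9% in the self-administration libraries, without overlap. The 10 shared markers of medium spiny neurons were all expressed, with a summed level of 1013 to 2490 FPKM over the libraries. In bulk tissue, fewer cells of a type and less RNA per cell cannot be told apart.

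Promoter sequence was held for 4 of the 8 genes, and these are shown because each of the 4 passed the limits of at least 1 comparison described here. Each run is the 250 bases before the RefSeq start of the gene, read 5′ to 3′ on the strand of the gene in the GRCr8 build, at chr3:137366504-137366753 on the minus strand for Pdyn, chr6:32659103-32659352 on the plus strand for Pomc, chr5:149625000-149625249 on the minus strand for Oprd1 and chr1:45585733-45585982 on the plus strand for Oprm1. Capitals mark the TATAAA motif.
Pdyn: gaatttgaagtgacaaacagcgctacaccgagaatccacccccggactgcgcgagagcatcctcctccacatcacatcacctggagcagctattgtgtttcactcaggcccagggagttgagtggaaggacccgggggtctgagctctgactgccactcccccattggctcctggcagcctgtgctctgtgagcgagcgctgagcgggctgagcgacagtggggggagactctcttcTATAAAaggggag
Pomc: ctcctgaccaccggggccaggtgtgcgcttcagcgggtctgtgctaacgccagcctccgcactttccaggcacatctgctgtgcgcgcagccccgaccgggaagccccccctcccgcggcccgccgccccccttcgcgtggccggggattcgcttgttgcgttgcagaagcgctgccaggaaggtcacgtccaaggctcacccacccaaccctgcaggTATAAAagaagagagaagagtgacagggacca
Oprd1: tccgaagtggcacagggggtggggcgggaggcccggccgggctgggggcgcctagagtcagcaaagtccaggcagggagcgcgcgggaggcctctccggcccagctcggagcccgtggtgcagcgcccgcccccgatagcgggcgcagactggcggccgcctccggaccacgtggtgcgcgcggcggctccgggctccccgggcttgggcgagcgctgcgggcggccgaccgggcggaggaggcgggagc
Oprm1: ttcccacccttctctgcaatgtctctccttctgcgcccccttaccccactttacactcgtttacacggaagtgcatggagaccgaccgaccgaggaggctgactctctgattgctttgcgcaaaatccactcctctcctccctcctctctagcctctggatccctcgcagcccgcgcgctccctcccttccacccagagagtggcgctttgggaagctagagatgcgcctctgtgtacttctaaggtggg
TATAAA, searched on both strands, was found in the Pdyn and Pomc windows and not in those of Oprd1 and Oprm1. Of 33469 rat promoter windows of this length, 12.9% held it. The CREB core TGACG, present in 18.2% of all windows, and the AP-1 motif TGAGTCA, present in 4.05%, were not found in these windows, which says only that these letters are not there. A second RefSeq start of Oprm1 had none of these motifs either. GC content was 59.2% for Pdyn, 66.4% for Pomc, 79.6% for Oprd1 and 58.4% for the Oprm1 window shown.

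Levels differed greatly within the family, and the precursors of the medium spiny neurons stood far above all the others. Penk had the highest mean level, 429 ± 114 FPKM (SD, n = 24), at rank 107 of all genes. Pdyn followed at 116 ± 28.1 FPKM, at rank 671. Penk was above Pdyn in 24 of 24 libraries, with a ratio of means of 3.71, and Pdyn was 15.8 times the next gene. These were the only neighbours in the order whose ranges over the 24 libraries did not overlap. The other 6 genes lay at 0.655 to 7.32 FPKM.

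Among the receptors, the nociceptin and κ receptors were the most abundant transcripts and the µ receptor the least. Oprl1 averaged 7.32 ± 1.34 FPKM and Oprk1 6.70 ± 1.64 FPKM (SD, n = 24), and Oprl1 was the higher in 17 of 24 libraries. Pnoc at 3.89 ± 1.73 FPKM and Oprd1 at 3.76 ± 1.46 FPKM could not be ordered, since Pnoc was higher in 12 of 24 libraries. Pomc averaged 1.56 ± 0.472 FPKM, and it rested on 12 to 43 reads per library. Oprm1 averaged 0.655 ± 0.348 FPKM, on 6 to 113 reads per library. Counting error alone is therefore large for Pomc and Oprm1, and their values carry less weight than those of Penk, with 6641 to 18917 reads, or Pdyn, with 2777 to 6899 reads.

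The genes lie at separate places in the rn6 build, which the submitters' processing notes name. Penk (ENSRNOG00000008943) spans chr5:17056419-17061837 on the minus strand, and Pdyn (ENSRNOG00000026036) spans chr3:122194329-122206671 on the minus strand. Pnoc (ENSRNOG00000014231) lies at chr15:48805228-48833285 on the minus strand and Pomc (ENSRNOG00000012686) at chr6:28382962-28388967 on the plus strand. The receptor genes are Oprm1 (ENSRNOG00000018191) at chr1:43454803-43704948 on the plus strand, Oprd1 (ENSRNOG00000010531) at chr5:150288126-150323063 on the minus strand, Oprk1 (ENSRNOG00000007647) at chr5:13744658-13760305 on the minus strand and Oprl1 (ENSRNOG00000016768) at chr3:177225737-177231663 on the plus strand. Oprm1 overlaps 4 other annotated genes, 1 of them on its own strand, and Penk overlaps 1 on its own strand. The sources do not say if reads were assigned by strand, so reads of these 2 genes may be shared with their neighbours, and their levels are uncertain to that extent.

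**Figure D1:**
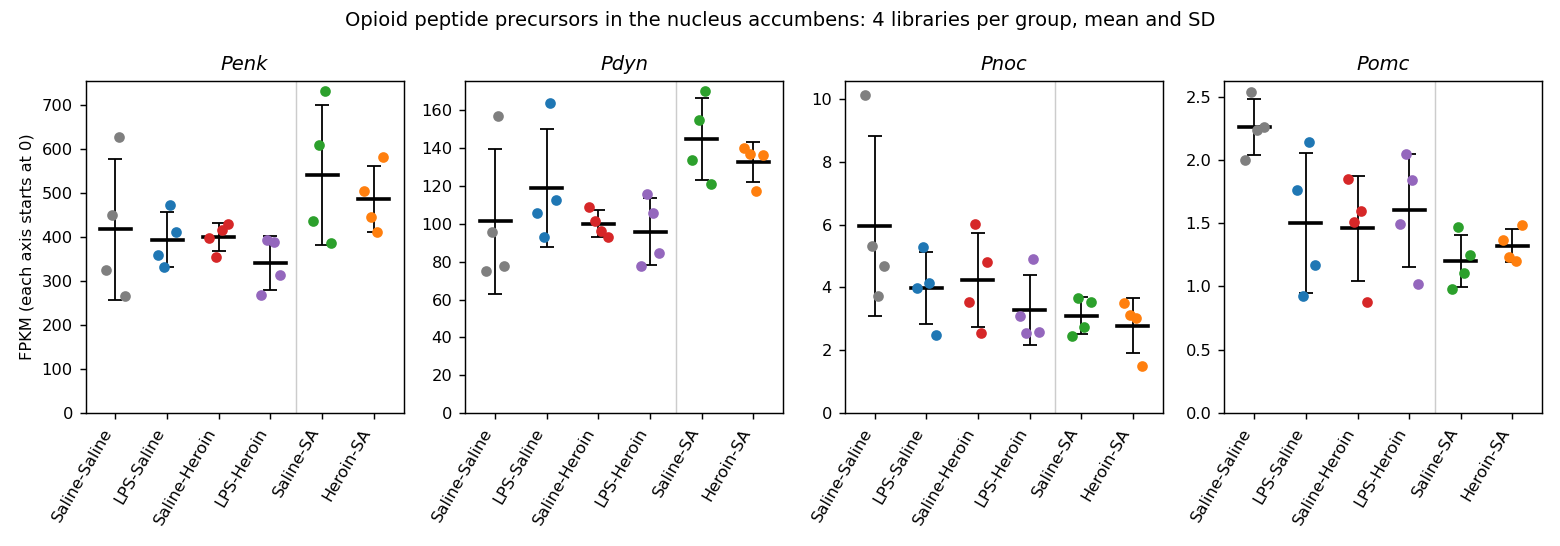
FPKM of the 4 opioid peptide precursor genes in each group. Points are the 4 libraries of a group, the long bar is their mean and the whiskers are the SD, each vertical axis starts at 0, and a grey line parts the injection from the self-administration experiment. The Saline-Saline libraries of Pomc lie at 2.0 to 2.54 FPKM, above all libraries of Saline-Heroin, Saline-SA and Heroin-SA.

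Groups were compared on log2(FPKM + 0.1) with limma-trend, and log2 fold changes are on this scale. A gene is named as called where the unadjusted p was at most 0.05 and the change at least 1.3-fold either way, which were the study's own limits for its pattern analyses. The adjusted p (Benjamini-Hochberg over all genes tested) is given beside each call. Fold changes on this scale understate changes of genes near 0.1 FPKM.

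A history of LPS alone was compared with saline to ask what it leaves behind in the NAc. In LPS-Saline, 1 of 8 family genes was called, Pomc, while 2.37% of all 15119 genes tested were called. None of the 8 was without overlap between the groups, against 4.11% of all genes. Pomc stood at 1.76, 0.928, 2.15 and 1.17 FPKM in LPS-Saline and at 2.0, 2.54, 2.24 and 2.26 FPKM in Saline-Saline. A single LPS-Saline library reached the Saline-Saline range and the other 3 lay under it. On the log2 scale the difference was -0.62 ± 0.26 (SE), with an adjusted p of 0.736. Leaving out a library ended this call in 6 of 8 cases, and it held only without LPS-Saline replicate 1 or replicate 3. With the replicate number as a block Pomc was not called and Oprk1 was, at the same log2 fold changes. The δ and κ receptors had higher means in LPS-Saline without passing the limits. Oprd1 had a log2 fold change of 0.67, with a 95% interval from -0.06 to 1.41, and Oprk1 of 0.41, with an interval from -0.01 to 0.83. The median log2 fold change of the 8 genes was 0.17, beside 0.01 over all genes.

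Oprd1 was even across the LPS-Saline rats and uneven in the controls. It was at 4.98, 4.14, 4.91 and 4.36 FPKM in LPS-Saline and at 1.36, 5.03, 2.89 and 3.22 FPKM in Saline-Saline. Saline-Saline replicate 2 was the highest of the 8 libraries, so the groups overlapped. Without that library Oprd1 was called, at a log2 fold change of 0.94, and Oprk1 was called without Saline-Saline replicate 3 or LPS-Saline replicate 2, at up to 0.52. Pdyn was called without Saline-Saline replicate 3, at 0.50.

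Injected heroin alone was compared with saline to ask how repeated exposure alters these genes. In Saline-Heroin, 1 of 8 genes was called, again Pomc, beside 3.07% of all genes. Pomc was also the only member whose groups did not overlap, which held for 3.39% of all genes. Its libraries were at 1.85, 1.51, 1.60 and 0.876 FPKM, all under the lowest Saline-Saline value of 2.0 FPKM. This was a log2 fold change of -0.64 ± 0.23 (SE), with an adjusted p of 0.750 and an exact permutation p of 0.0286, the smallest that 4 libraries against 4 allow. The call was lost without Saline-Saline replicate 2. It rests on 12 to 33 reads in Saline-Heroin and 36 to 43 in Saline-Saline. The medium spiny neuron precursors stayed near their control means, with log2 fold changes of 0.01 for Penk (95% interval -0.52 to 0.54) and 0.05 for Pdyn (-0.43 to 0.52). Among the receptors, Oprm1 had a log2 fold change of 0.00 (-0.63 to 0.63) and Oprk1 of 0.28 (-0.05 to 0.61). Oprk1 was called without Saline-Saline replicate 3, at 0.39.

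**Figure D2:**
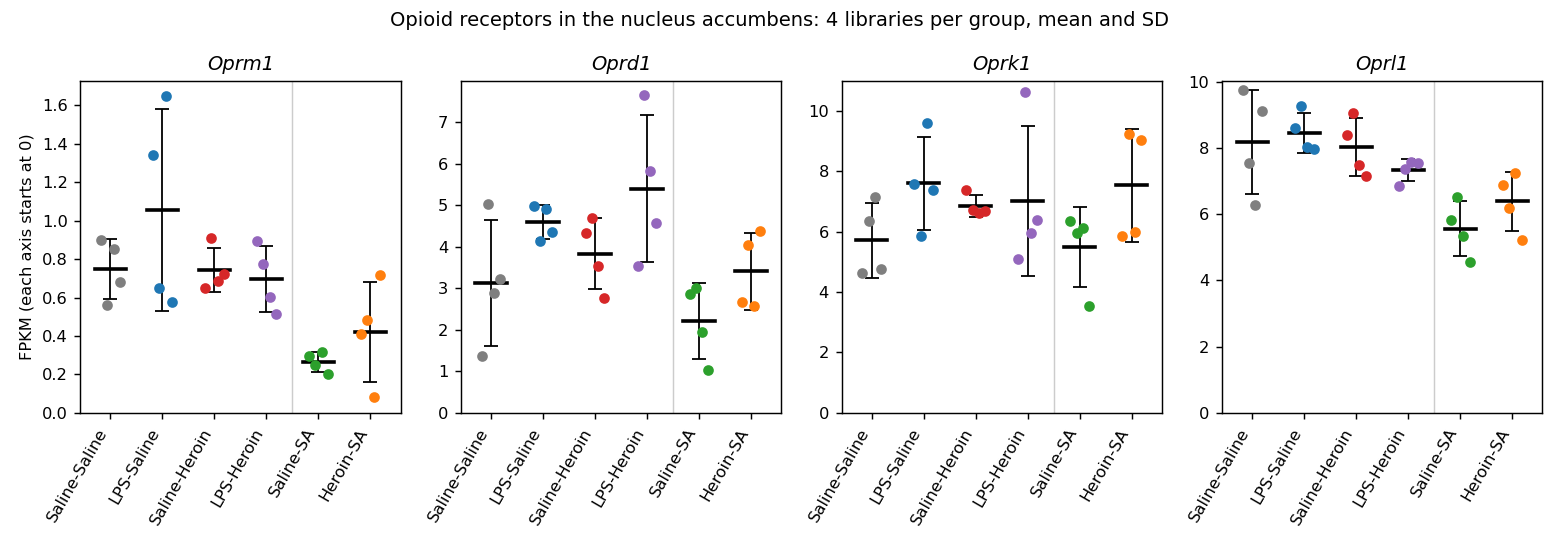
FPKM of the 4 opioid receptor genes in each group. Points are the 4 libraries of a group, the long bar is their mean and the whiskers are the SD, each vertical axis starts at 0, and a grey line parts the injection from the self-administration experiment. The Saline-SA libraries of Oprm1 lie at 0.200 to 0.316 FPKM, below all 16 injection libraries.

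Against Saline-Saline, both agents together gave more calls within the family than each alone, in either direction, with Oprd1 and Pomc just past the limit. In LPS-Heroin against Saline-Saline, 3 of 8 genes were called, beside 5.43% of all genes. Pnoc and Pomc were lower and Oprd1 was higher. The unadjusted limma-trend p was 0.0495 for Oprd1 and 0.0498 for Pomc. The log2 fold change of Pomc, -0.51, was smaller than its -0.62 in LPS-Saline and -0.64 in Saline-Heroin. A count of calls therefore does not measure the size of the changes. None of the 8 was without overlap, against 6.86% of all genes. Penk and Pdyn were not called, with log2 fold changes of -0.23 (95% interval -0.80 to 0.34) and -0.03 (-0.56 to 0.50). The comparison shares its controls with the LPS-Saline and Saline-Heroin comparisons, so the lower Pomc seen in each of them rests on the same 4 Saline-Saline libraries.

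Pnoc, the nociceptin precursor, was at 3.09, 2.54, 4.90 and 2.59 FPKM in LPS-Heroin and at 10.1, 5.31, 3.72 and 4.67 FPKM in Saline-Saline. Pnoc thus differed by -0.79 ± 0.32 on the log2 scale (SE), with an adjusted p of 0.400. Saline-Saline replicate 1 stood apart as the highest of all 24 libraries, and LPS-Heroin replicate 3 lay within the control range. The call held in 3 of 8 leave-outs, those of Saline-Saline replicates 3 and 4 and of LPS-Heroin replicate 3, and without Saline-Saline replicate 1 the log2 fold change was -0.50. Oprd1 was at 3.54, 7.65, 5.81 and 4.57 FPKM in LPS-Heroin, which put all 4 libraries above 3 of the 4 Saline-Saline libraries. Its log2 fold change was 0.85 ± 0.37 (SE), with an adjusted p of 0.442, and the call held only without Saline-Saline replicate 2 or LPS-Heroin replicate 1. Pomc was at 1.5, 2.05, 1.84 and 1.02 FPKM in LPS-Heroin, with a log2 fold change of -0.51 ± 0.22 (SE) and an adjusted p of 0.443. Of the leave-outs, those of LPS-Heroin replicates 2 and 3 kept this call. Under 10 other settings of the fit, Pnoc was called in 10, Oprd1 in 6 and Pomc in 2.

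Sums of markers of neighbouring tissue differed between Saline-Saline and LPS-Heroin for some tissues and not for others. Those of the 6 claustrum markers overlapped, at 182 to 263 FPKM in Saline-Saline and 210 to 275 FPKM in LPS-Heroin. The 8 markers of the septum and ventral forebrain, all of them expressed, summed to 74.1 to 158 FPKM in Saline-Saline and 48.4 to 71.8 FPKM in LPS-Heroin, without overlap. Of these markers 2 were called lower in LPS-Heroin, Nts and Dlk1, and 0 higher, beside 5.43% of all genes called. Lhx2 and Sln had the higher mean in LPS-Heroin, at 12.9 and 3.70 FPKM against 10.4 and 3.19 FPKM in Saline-Saline. Saline-Saline replicate 1, the library with the highest Pnoc, also had the highest septal sum and the highest choroid plexus sum, 337 FPKM over 7 markers, which was at most 32.7 FPKM in the other 23 libraries. The 7 measured markers of cortical glutamatergic neurons summed to 153 to 318 FPKM in Saline-Saline and 420 to 477 FPKM in LPS-Heroin, without overlap. Their part in the differences of Pnoc, Pomc and Oprd1 was not tested. For Pomc, 8 of 10 pituitary markers averaged under 0.5 FPKM over the 24 libraries, among them Gh1 and Prl, and so did 7 of 12 hypothalamic markers. Of the 6 hypothalamic markers tested in this comparison 3 were called lower and 0 higher. Oxt averaged 0.0627 FPKM in LPS-Heroin and 14 FPKM in Saline-Saline, Avp 0.397 and 2.05 FPKM, and Trh 5.17 and 8.63 FPKM. The SD of Oxt in Saline-Saline was 14.8 FPKM. Oxt and Avp passed the minimum mean of 0.5 FPKM for testing only through Saline-Saline, where they were high. Their calls therefore add no weight to this count. Cartpt had the higher mean in LPS-Heroin, at 125 FPKM against 109 FPKM in Saline-Saline. In LPS-Saline 1 of 6 was called lower, Trh, and 0 higher. In Saline-Heroin 0 of 6 were called. Oxt had the higher mean there than in Saline-Saline, at 23.8 FPKM, and Avp and Trh the lower, at 1.36 and 7.42 FPKM. The summed hypothalamic markers were 235 FPKM in Saline-Heroin replicate 2 and 124, 114 and 126 FPKM in replicates 1, 3 and 4. The Oxt mean of Saline-Heroin may therefore rest mainly on replicate 2. The part of these markers in the Pomc differences was not tested.

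Heroin after LPS was next compared with each single treatment. Against LPS-Saline, 0 of 8 genes were called by limma-trend and 0 by limma-voom on recovered reads, beside 2.29% of all genes. Oprl1 alone had an unadjusted p under 0.05, and it alone had groups that did not overlap, which held for 2.58% of all genes. It was at 6.84, 7.38, 7.59 and 7.54 FPKM in LPS-Heroin and at 8.59, 9.26, 8.03 and 7.95 FPKM in LPS-Saline. The log2 fold change of -0.20 ± 0.09 (SE) was smaller than the limit, and the adjusted p was 0.977. Against Saline-Heroin, 0 of 8 genes were called by either tool and 0 had an unadjusted p under 0.05, beside 2.2% of all genes called. None of the 8 was without overlap, against 2.37% of all genes. Oprd1 had a log2 fold change of 0.45 (95% interval -0.11 to 1.02) and was called only without LPS-Heroin replicate 1, at 0.63. Penk had one of -0.24 (-0.53 to 0.04).

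Whether the effect of heroin depended on the history of LPS was asked with the interaction of both treatments in the 16 injection libraries. None of the 8 genes was called by either tool and 0 had an unadjusted p under 0.05, beside 2.31% of all genes called. The estimate farthest from 0 was that of Pomc, 0.75 on the log2 scale, with a 95% interval from -0.09 to 1.59. Oprk1 had an estimate of -0.43 (-1.05 to 0.19) and Oprm1 one of -0.44 (-1.40 to 0.52). Pomc was called without LPS-Saline replicate 3 or LPS-Heroin replicate 4, at 0.94 in each case. Pdyn was called without Saline-Saline replicate 3, at -0.57, and Oprk1 without LPS-Heroin replicate 2, at -0.65. LPS-Heroin replicate 2 had the highest Oprk1 and the highest Oprd1 of the 24 libraries.

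**Figure D3:**
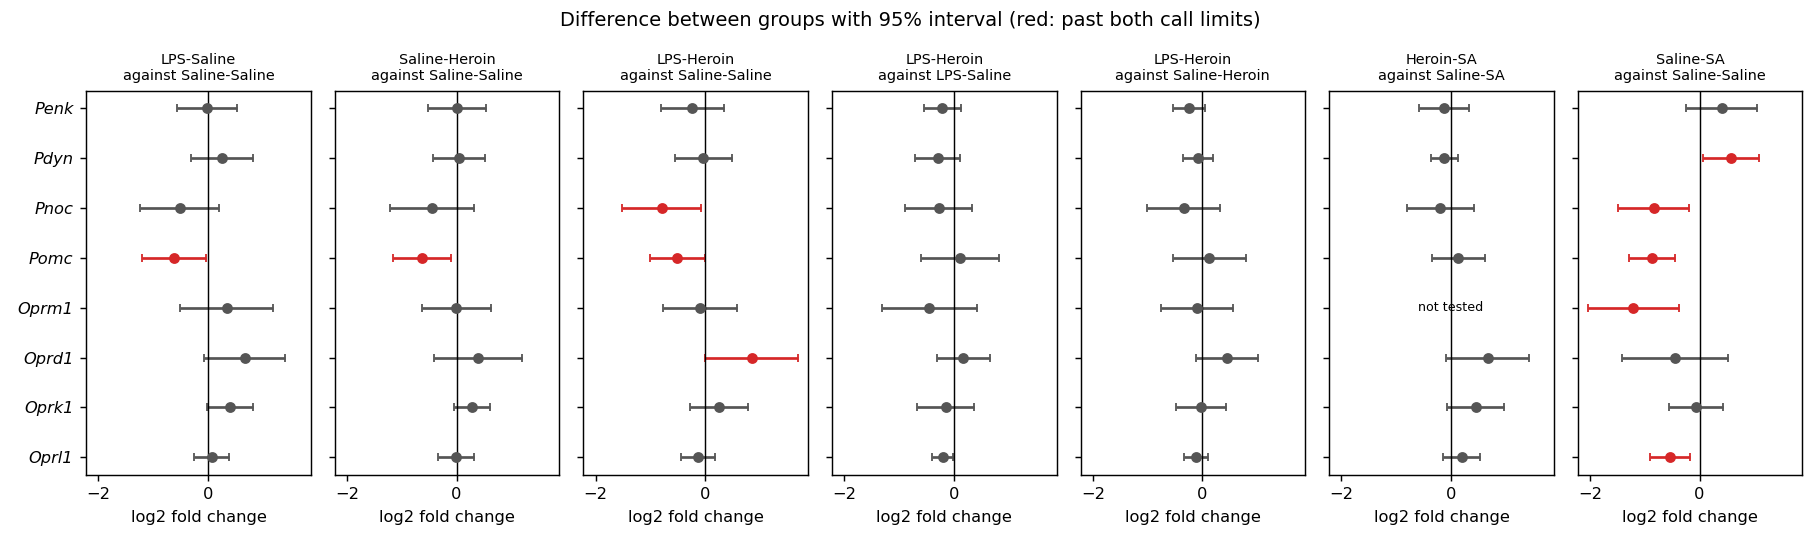
Log2 fold change of each family gene in the 7 pairwise comparisons, on log2(FPKM + 0.1). Points are the limma-trend estimates, bars are 95% intervals, and red marks genes past both call limits. These were 5 of 8 in Saline-SA against Saline-Saline, among them Oprm1, which passed the FPKM minimum only through Saline-Saline. They were 0 of 7 in Heroin-SA against Saline-SA, where Oprm1 was too low to be tested.

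Heroin taken by the rats themselves was compared with saline taken in the same way. In Heroin-SA against Saline-SA, 0 of 7 genes tested were called by limma-trend, 0 by limma-voom, and 0 had an unadjusted p under 0.05, beside 5.45% of all genes called. None of the 8 was without overlap, against 6.8% of all genes. All 4 receptors had the higher mean in Heroin-SA, and Penk, Pdyn and Pnoc had the lower, but each group overlapped the other. Oprd1 was at 2.66, 4.04, 2.57 and 4.37 FPKM in Heroin-SA and at 2.85, 3.01, 1.95 and 1.03 FPKM in Saline-SA. Its log2 fold change was 0.67, with a 95% interval from -0.10 to 1.43 and an adjusted p of 0.482, and it was called without Saline-SA replicate 2, at 0.85. Oprk1 was at 5.84, 9.23, 6.00 and 9.04 FPKM in Heroin-SA and at 6.35, 5.95, 6.13 and 3.52 FPKM in Saline-SA. Its log2 fold change was 0.45 (-0.07 to 0.97), with an adjusted p of 0.486. The κ receptor was thus high in Heroin-SA replicates 2 and 4 and at the Saline-SA level in the other 2.

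Oprm1 averaged under the minimum of 0.5 FPKM in the self-administration libraries and was not tested there. It was at 0.410, 0.482, 0.0843 and 0.715 FPKM in Heroin-SA and at 0.294, 0.248, 0.316 and 0.200 FPKM in Saline-SA. Of the Heroin-SA libraries, 3 lay above all Saline-SA libraries and replicate 3, with 6 reads on the gene, lay below them. With no minimum the log2 fold change was 0.35, with an adjusted p of 0.795. The precursors were closer between these groups, with log2 fold changes of -0.12 for Penk (95% interval -0.58 to 0.34), -0.12 for Pdyn (-0.37 to 0.14), -0.20 for Pnoc (-0.81 to 0.42) and 0.14 for Pomc (-0.35 to 0.62).

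The difference that heroin made was then compared between self-administered and injected heroin, each against its own saline group. Of 8 genes, 1 was called, beside 4.38% of all genes. This was Pomc, with an estimate of 0.77 ± 0.30 (SE) on the log2 scale and an adjusted p of 0.721. It was called in 16 of 16 leave-outs. The estimate rests on the same 4 Saline-Saline libraries as the lower Pomc of the injection comparisons. Leaving out 1 library at a time cannot test a level that those 4 share. Pomc averaged 2.26 FPKM in Saline-Saline, 1.46 in Saline-Heroin, 1.20 in Saline-SA and 1.32 in Heroin-SA. Pomc was lower in Saline-Heroin than in its control and was at 1.36, 1.24, 1.20 and 1.49 FPKM in Heroin-SA against 0.983, 1.47, 1.11 and 1.25 FPKM in Saline-SA. Dose, route, duration and the time of killing differ between the 2 kinds of exposure and cannot be told apart.

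The saline groups of both experiments were set side by side to show how far the family differs with the experiment itself. In Saline-SA against Saline-Saline, 5 of 8 genes were called, beside 22.8% of all 15150 genes. Pnoc, Pomc and Oprm1 were without overlap, which held for 28.3% of all genes. At an adjusted p under 0.05, Pomc, Oprl1 and Oprm1 were called, beside 3584 of all genes. Each of these counts of members includes Oprm1, which averaged 0.265 FPKM in Saline-SA. It passed the minimum of 0.5 FPKM over these 8 libraries only through Saline-Saline, so it adds no weight to the counts. Pdyn was called higher, and Pnoc, Pomc, Oprm1 and Oprl1 were called lower. The median log2 fold change of the 8 genes was -0.49, beside 0.01 over all genes. Mitochondrial reads took 10.7% to 15.9% of the Saline-SA libraries and 6.82% to 8.64% of the Saline-Saline libraries, and with those reads left out of the scaling 5 of 8 genes were called.

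Oprm1, the µ receptor, was lower in all Saline-SA libraries. They were at 0.294, 0.248, 0.316 and 0.200 FPKM, on 16 to 27 reads, and the Saline-Saline libraries at 0.902, 0.560, 0.851 and 0.681 FPKM, on 45 to 77 reads. Its log2 fold change was -1.21 ± 0.37 (SE), with an adjusted p of 0.0421. The call held without each Saline-SA library, and without any Saline-Saline library the gene averaged under 0.5 FPKM and was not tested. Oprm1 thus passed the minimum only through Saline-Saline, where it was high, and its call adds nothing to these values. Over the alternatives the log2 fold change ran from -1.54 to -0.46, the latter at a pseudocount of 1, and the adjusted p from 0.00310 to 0.0919.

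Both genes of the nociceptin system were called lower in Saline-SA. Oprl1 was at 5.83, 6.53, 5.34 and 4.56 FPKM in Saline-SA and at 9.76, 7.55, 6.27 and 9.12 FPKM in Saline-Saline. On the log2 scale it differed by -0.54 ± 0.16 (SE), with an adjusted p of 0.0424, and the groups overlapped by the lowest Saline-Saline library. Pnoc was at 2.44, 3.67, 2.75 and 3.53 FPKM in Saline-SA, just under the lowest Saline-Saline value of 3.72 FPKM. Its log2 fold change was -0.84 ± 0.29 (SE), with an adjusted p of 0.0659. Both calls held in 8 of 8 leave-outs. The septal marker sum was 59.6 to 78.5 FPKM in Saline-SA, mostly under the 74.1 to 158 FPKM of Saline-Saline. Its 8 markers did not all go the same way. Dlk1 was called lower, at 11.3 FPKM in Saline-SA and 28.1 FPKM in Saline-Saline. Lhx2 was called higher, at 14.8 and 10.4 FPKM, beside 22.8% of all genes called in either direction. The part of these markers in the result was not tested.

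Pomc was at 0.983 to 1.47 FPKM in Saline-SA, with 17 to 30 reads per library, and at 2.0 to 2.54 FPKM in Saline-Saline. The log2 fold change was -0.87 ± 0.19 (SE), with an adjusted p of 0.0117, and the call held in 8 of 8 leave-outs. The hypothalamic marker sum was higher in Saline-SA, at 211 to 249 FPKM, than in Saline-Saline, at 112 to 189 FPKM, and Cartpt, which the NAc also expresses, gave most of it. The pituitary marker sum was also higher, at 6.09 to 17.3 FPKM against 2.48 to 3.57 FPKM. Tbx19, the T-box factor of Pomc-producing pituitary cells, gave most of the pituitary sum, at a mean of 6.01 FPKM in Saline-SA and 1.93 FPKM in Saline-Saline. Further markers of these lists went either way. Trh, Agrp and Gh1 had the higher mean in Saline-SA, at 12.2, 1.45 and 2.22 FPKM, against 8.63, 1.11 and 0 FPKM in Saline-Saline. The SD of Trh in Saline-SA was 7.27 FPKM. The pituitary sum was 17.3 FPKM in Saline-SA replicate 4 and 6.09 to 6.61 FPKM in the other Saline-SA libraries. The Gh1 mean may therefore rest mainly on replicate 4. Other markers had the lower mean in Saline-SA, as Pomc had. Oxt was at 5.11 FPKM in Saline-SA and 14 FPKM in Saline-Saline, Avp at 1.36 and 2.05 FPKM, and Lhb at 0.707 and 1.04 FPKM. The part of these markers in the Pomc difference was not tested.

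Pdyn ran the other way. It was at 134, 155, 170 and 121 FPKM in Saline-SA and at 75.0, 95.8, 157 and 77.6 FPKM in Saline-Saline. Saline-Saline replicate 3 lay within the Saline-SA range and the other 3 controls lay below it. The log2 fold change was 0.57 ± 0.22 (SE), with an adjusted p of 0.0994, and the call held in 3 of 8 leave-outs, those of Saline-Saline replicate 3 and of Saline-SA replicates 1 and 4. Penk was at 437, 608, 730 and 387 FPKM in Saline-SA and at 325, 450, 626 and 266 FPKM in Saline-Saline, with a log2 fold change of 0.41 (95% interval -0.24 to 1.05). The shared medium spiny neuron markers summed to 1500 to 2490 FPKM in Saline-SA and 1013 to 1852 FPKM in Saline-Saline. Within Saline-Saline, replicate 3 had the highest sum of these markers as well as the highest Penk and Pdyn. The part of the marker level in the Pdyn difference was not tested.

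The ratio of Penk to Pdyn within a library does not depend on library scaling, and it compares the precursors of both classes of medium spiny neurons. Its geometric mean was 4.08 for Saline-Saline and 3.99 for Saline-Heroin, 3.36 for LPS-Saline and 3.55 for LPS-Heroin, and 3.64 for Saline-SA and 3.63 for Heroin-SA. Single libraries ran from 2.89 to 4.70. The lowest exact permutation p over 7 comparisons was 0.0857, for LPS-Saline against Saline-Saline, with a difference of -0.28 on the log2 scale and a Benjamini-Hochberg value of 0.400. Heroin-SA and Saline-SA differed by 0.00 (exact permutation p = 0.943). No comparison of the ratio passed the threshold.

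**Figure D4:**
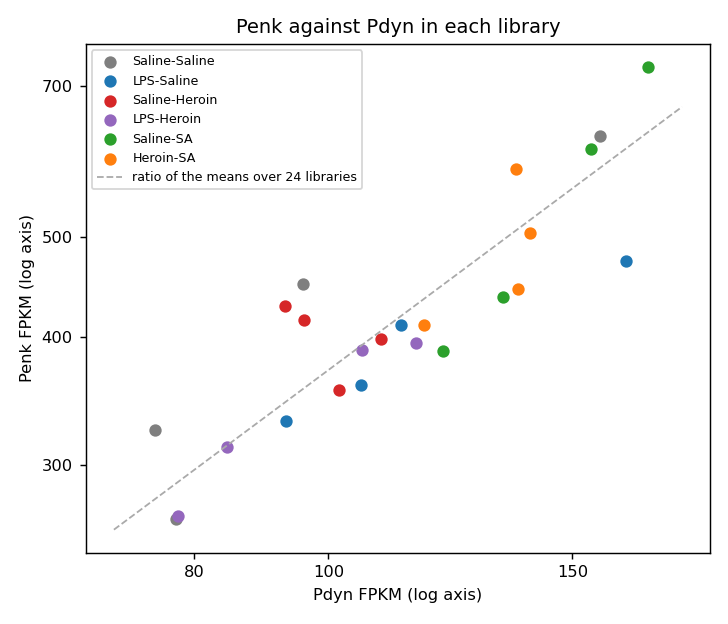
Penk FPKM against Pdyn FPKM in each of the 24 libraries, both on log axes, coloured by group. The dashed line is the ratio of the means over all libraries, 3.71, and the libraries of every group lie along it, from 266 to 730 FPKM of Penk.

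Penk and Pdyn varied together from rat to rat. After group means were removed, Pearson's r of log2(FPKM + 0.1) was 0.86 and Spearman's rho 0.87 over 24 libraries, with permutation p-values adjusted over 28 pairs of 0.00056 and 0.00084. The r was 0.80 without the 2 libraries farthest from the median of Penk, 0.88 within the 16 injection libraries and 0.92 within the 8 self-administration libraries. Oprk1, the κ receptor, varied with its ligand precursor Pdyn, with r = 0.71, rho = 0.72 and adjusted permutation p-values of 0.00294 and 0.00518. It also varied with Penk, with r = 0.66, rho = 0.69 and adjusted permutation p-values of 0.0213 and 0.0155, and with Oprd1, with r = 0.73, rho = 0.72 and adjusted permutation p-values of 0.00821 and 0.00877. Without the 2 farthest libraries these r values were 0.70, 0.63 and 0.66. Within the injection libraries they were 0.80, 0.73 and 0.60, and within the self-administration libraries 0.60, 0.54 and 0.92. With group means kept, the r of Oprk1 was 0.40 with Pdyn, 0.34 with Penk and 0.73 with Oprd1. With group means removed, both adjusted values were under 0.05 for these 4 of 28 pairs. Pomc and Oprd1 passed by rho, at 0.52 with an adjusted permutation p of 0.0404, and not by r, at 0.41 with 0.0589.

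The other ligand and receptor pairs were looser. Pnoc and Oprl1, the nociceptin precursor and its receptor, correlated at r = 0.57 and rho = 0.52, with adjusted permutation p-values of 0.0589 and 0.0962. Penk and Oprd1 had an r of 0.38, with an adjusted permutation p of 0.319, and Penk and Oprm1 an r of 0.26, with 0.251. All libraries come from dissected tissue, so pairs of genes of the same cells share the amount of those cells in a sample.

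**Figure D5:**
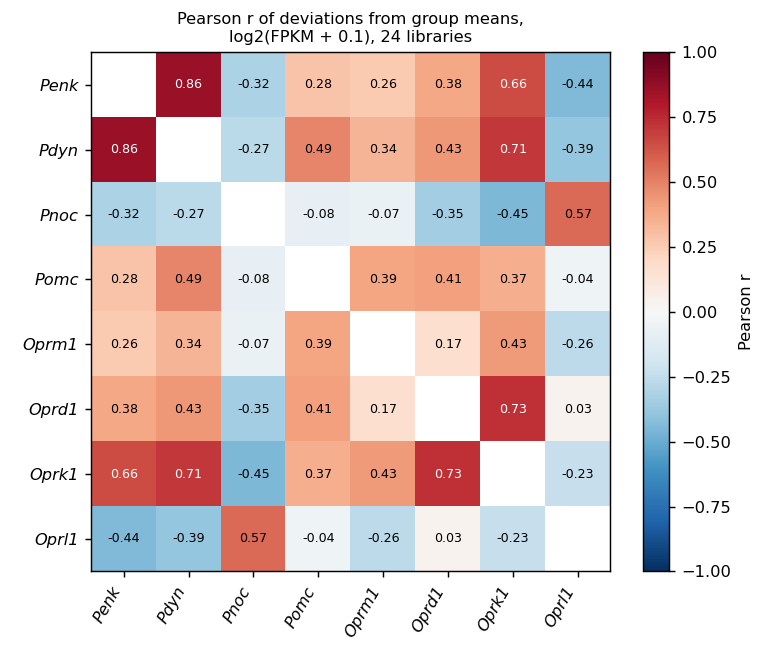
Pearson's r between each pair of the 8 genes, computed on deviations of log2(FPKM + 0.1) from group means over 24 libraries. Colours run from blue at -1 to red at 1, and the highest values are those of Penk with Pdyn (0.86) and of Oprk1 with Oprd1 (0.73) and Pdyn (0.71).

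The genes whose pattern over the 24 libraries was most like each member were found among 13222 other genes, as a description with no test. For Penk they were Nexn (r = 0.90), Ppp1r1b (0.90) and Pard3 (0.88), and Ppp1r1b encodes DARPP-32, a signalling protein of medium spiny neurons. With group means removed, the r of Penk and Ppp1r1b was 0.94. For Pdyn they were Car12 (0.92), Kctd1 (0.87) and Rem2 (0.86). For Oprk1 they were Pde10a (0.90), a phosphodiesterase of medium spiny neurons, Gucy1b3 (0.84) and Mctp1 (0.82). For Oprd1 they were Fam49a (0.83), Ube2j1 (0.81) and Pcsk2 (0.81), a convertase that cuts opioid precursors.

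The genes most like Oprm1 were Kif5b (0.94), Orc3 (0.94) and Stox2 (0.94), and with group means removed these r values were 0.90, 0.85 and 0.87. For Oprl1 they were Elavl2 (0.86), Acad9 (0.86) and Clstn3 (0.85). Pnoc had Gfra2 (0.82), Grik1 (0.81) and Ilvbl (0.80). Pomc had the lowest values, with Pnpla6 (0.72), Zfp407 (0.68) and Abtb2 (0.67), and with group means removed that of Pnpla6 was 0.56.

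The rest of the opioid system was followed in 6 lists that together held 65 measured genes, for precursor processing, peptide breakdown, G protein subunits, receptor kinases with arrestins and RGS proteins, receptor effectors, and CREB and AP-1 regulators. In LPS-Saline against Saline-Saline 2 of 64 genes tested were called higher and 0 lower, beside 2.37% of all genes called. In Saline-Heroin it was 0 higher and 6 lower, beside 3.07% of all genes. In LPS-Heroin it was 6 higher and 2 lower, beside 5.43%. In LPS-Heroin 0 were higher and 3 lower than in LPS-Saline, beside 2.29%, and 0 were called against Saline-Heroin, beside 2.2%. In Heroin-SA 2 of 63 genes were called higher and 3 lower than in Saline-SA, beside 5.45%. None of these calls had an adjusted p under 0.05.

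Few enzymes and signalling partners were called. Pcsk1, a convertase that cuts opioid precursors, was called higher in LPS-Saline than in Saline-Saline, at a log2 fold change of 0.68 ± 0.27 (SE) and an adjusted p of 0.736. Ece2, a peptidase, was called lower in Saline-Heroin, at -0.47, and in LPS-Heroin, at -0.50. Rgs4, which ends G protein signals, was called higher in LPS-Heroin, at 0.58, and in Heroin-SA than in Saline-SA, at 0.40. Adcy1, a neuronal adenylyl cyclase, was called higher in LPS-Saline, LPS-Heroin and Heroin-SA than in the saline group of each experiment, at 0.59, 1.01 and 1.05. Of the potassium channel genes, Kcnj9 and Kcnj3 were called higher in LPS-Heroin than in Saline-Saline, at 0.50 and 0.83. Kcnj5 was called lower in Saline-Heroin, at -0.75. The summed cortical markers were 420 to 477 FPKM in LPS-Heroin and 153 to 318 FPKM in Saline-Saline, without overlap. In that comparison 6 of 7 cortical markers were called higher, beside 5.43% of all genes called. The sums were 150 to 421 FPKM in LPS-Saline, 117 to 437 FPKM in Heroin-SA and 115 to 301 FPKM in Saline-SA. The part of the cortical markers in the Adcy1, Rgs4, Kcnj9 and Kcnj3 values was not tested.

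Genes of the AP-1 family of transcription factors, which act on the precursor genes, were called lower with heroin in 3 comparisons. In Saline-Heroin 4 of 10 genes of the CREB and AP-1 list were called lower and 0 higher, beside 3.07% of all genes called in either direction, with Fosl2 at -0.71 ± 0.15, Fos at -0.96 ± 0.20 and Junb at -0.71 ± 0.24 (log2, SE), each with an adjusted p of 0.750. Fos was at 15.2 ± 3.26 FPKM in Saline-Heroin and 29.5 ± 7.11 FPKM in Saline-Saline (SD, n = 4). In LPS-Heroin against LPS-Saline 3 of 10 were called lower, beside 2.29% of all genes, with Fos at -0.96, Junb at -0.56 and Fosb at -0.60. In Heroin-SA against Saline-SA 3 of 10 were called lower, beside 5.45% of all genes, with Fos at -0.64, Fosb at -0.69 and Junb at -0.43, and adjusted p-values of 0.412, 0.335 and 0.331. The precursors Penk and Pdyn were not called in any of these 3 comparisons. In LPS-Heroin against Saline-Saline 0 of 10 were called lower and 1 was called higher, beside 5.43% of all genes. This was Kcnip3, which encodes DREAM, a repressor of Pdyn, at a log2 fold change of 0.55. The part of the cortical markers in the Kcnip3 value was not tested.

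The saline groups differed more. In Saline-SA against Saline-Saline 2 of 63 genes of the lists were called higher and 15 lower, which is 27.0% of them beside 22.8% of all genes, and 15 of 63 had an adjusted p under 0.05. Prkacb, a catalytic subunit of protein kinase A, had a log2 fold change of -1.19 (adjusted p = 0.000995), Creb1 one of -1.03 (0.00251) and Fos one of -1.20 (0.00287). The receptor-coupled Gnai1 had one of -0.92 (0.000821). Adcy1 had one of -1.15 (0.0207), the opposite sign to its heroin comparisons. Gng7, a G protein subunit, and Rgs9, an RGS protein, both rich in medium spiny neurons, were the 2 called higher, at 0.67 (0.0396) and 0.91 (0.0155). These are limma-trend values with Benjamini-Hochberg adjustment.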

How the data were processed

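NAc tissue of male rats gave 24 RNA-seq libraries, 4 in each of 6 groups taken from the labels. Directional libraries from polyadenylated RNA were trimmed with fastp, aligned with HISAT2 to rn6 and counted with featureCounts, as the methods and the submitters' processing notes name them; versions are not given in the sources used here. The authors deposited FPKM values of 32545 genes. Each value was a whole multiple of 1 read (100% within 0.01), so reads were recovered for depth, 12312878 to 18850240 per library, and for limma-voom as an alternative.

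The 8 genes and the lists of pathway and marker genes were chosen with earlier results of these data known. Genes with a mean of at least 0.5 FPKM in the libraries fitted were tested with limma-trend (limma 3.58.1, R 4.3.3) on log2(FPKM + 0.1), in 7 pairwise and 2 difference-of-difference comparisons, with Benjamini-Hochberg adjustment over all genes tested. The main test was set for FPKM, the deposited unit, in place of the study's own count-based test. A call needed an unadjusted p no higher than 0.05 with at least a 1.3-fold change. Ratios of Penk to Pdyn were compared by two-sided exact permutation, and pairs of members by Pearson's r and Spearman's rho of deviations from group means with 100000 two-sided permutations within groups. From each pathway list at most 3 called genes per comparison are named, smallest p first, and for each member the 3 genes with the highest r over all libraries. The fit was tested on simulated data. Alternatives were other pseudocounts and FPKM minimums, quantile normalization, equal medians, 1 fit of all groups, limma-voom, the adjusted p, the replicate number as a block, each library left out, and, chosen after seeing the data, mitochondrial reads left out of the scaling. P-values measure the spread between these libraries.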

Additional observations from a re-analysis of the deposited data

Results flagged for a closer look

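Of 48 sets of 4 libraries, a member in a group, 3 had a lowest or highest library set apart from the others by Dixon's criterion, and chance sets apart about 1 in 20. Pdyn was lowest in Heroin-SA replicate 3, at 117 FPKM beside 137 to 140 FPKM in the other 3. Oprk1 was highest in Saline-Heroin replicate 1, at 7.38 FPKM beside 6.60 to 6.71 FPKM. Oprk1 was lowest in Saline-SA replicate 4, at 3.52 FPKM beside 5.95 to 6.35 FPKM.

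For Pomc, the estimated difference between the effects of self-administered and injected heroin was 0.77 on the log2 scale. The limma-trend p was 0.0195 and the adjusted p 0.721. This estimate rests on 12 to 43 reads per library and on the level of the 4 Saline-Saline libraries. Pomc averaged 2.26 FPKM in Saline-Saline, 1.46 in Saline-Heroin, 1.20 in Saline-SA and 1.32 in Heroin-SA.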

How the results depend on the processing

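No call changed direction under any alternative. At an adjusted p under 0.05, 0 members were called against Saline-Saline in LPS-Saline, LPS-Heroin and Saline-Heroin. The same held for the comparison of self-administered with injected heroin. In Saline-SA against Saline-Saline 3 were called, among them Oprm1, which passed the minimum only through Saline-Saline. Quantile normalization left 0 members in LPS-Saline and 1 in LPS-Heroin against Saline-Saline, where no minimum on mean FPKM also left 1. With all 6 groups in 1 fit, 1 member, Pomc, was called in the LPS by heroin interaction. Leaving out a library gave 0 to 2 members in LPS-Saline and in Saline-Heroin, 0 to 2 in LPS-Heroin and 3 to 5 in Saline-SA against Saline-Saline, 0 to 1 in LPS-Heroin against Saline-Heroin, in Heroin-SA against Saline-SA and in the interaction, and 1 to 2 between self-administered and injected heroin, where Pdyn joined Pomc without Saline-Saline replicate 3. Why these counts moved was not tested.

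Of 702 values under other alternatives, 14 lost and 3 gained a call, and of 692 with a library left out, 29 lost and 13 gained one. Among members not called, the sign changed in 6 and 48 of these. Without mitochondrial reads in the scaling, Pomc in LPS-Heroin was the only call lost. Deviations of samples with the same replicate number correlated at -0.150 to 0.154 over the expressed genes. Correlations over so many genes cannot show if same-numbered samples share a batch that affects some genes, and this was not tested. With a replicate block, 6 members were called in Saline-SA against Saline-Saline and 2 in LPS-Heroin against Saline-Saline, and in LPS-Saline Oprk1 was called in place of Pomc. Pomc and Oprm1 are limited by 43 and 113 reads or fewer per library.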
